A study of Homo sapiens with 6 samples.

Results

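Kasumi-1 is an established human acute myeloid leukaemia line that carries the t(8;21) translocation, which fuses RUNX1 to RUNX1T1. To follow genes typical of this leukaemia, 9 known as its markers or as targets of the fusion were chosen by name: POU4F1, TRH, CAV1, PRAME, CD82, UBASH3B, LAT2, IGFBP7 and NFE2. Of these, 8 of the 29810 genes in the deposited table are described below, and CAV1, the coat protein of caveolae, was not analysed here. The RNA came from 6 samples of this 1 line: 3 were incubated with a control and 3 with 0.125 µM of I1, each over 48 h. The agent given as control is not specified further, and I1 is known here only by its code name. Both groups carry the translocation, so no sample without the fusion serves as a reference. Separate cultures are not stated for the replicates, so p-values reflect the spread among these samples alone and that spread may be technical. The comparison asked how the mRNA of these genes differed after I1.

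The fusion protein keeps the DNA-binding Runt domain of RUNX1 and adds the corepressor-binding part of RUNX1T1. It binds DNA together with E proteins and other blood transcription factors, and it both silences and activates genes. The genes chosen fall on both sides of that activity: POU4F1 and TRH, a neuronal transcription factor and a hypothalamic hormone precursor, are switched on in this leukaemia out of their usual tissue. PRAME, a tumour antigen, is also often high, and UBASH3B is a fusion-activated phosphatase, whereas LAT2, an adaptor of immune receptors, is a gene the fusion silences.

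Promoter windows of 250 bases before the transcript start were taken from RefSeq (GRCh38.p14) for 5 of the 8 genes. They were searched on both strands for the RUNX core, TGTGGT or TGCGGT, and for the E-boxes CAGCTG and CAGGTG. Over all 35116 windows, 16.3% held a RUNX core and 28.7% an E-box. The 5 genes had 7 windows, PRAME with 3 starts, of which 0 held a RUNX core and 4 held an E-box, so no match of one motif overlapped the other. The windows of UBASH3B and POU4F1 are shown, since UBASH3B was the gene whose groups did not overlap and POU4F1 the one with the steadiest level. Each is cut before the first exon that GENCODE gives the gene, and capitals mark the E-boxes. UBASH3B is read from chr11:122655472-122655674 on the plus strand and POU4F1 from chr13:78603561-78603802 on the minus strand.
UBASH3B: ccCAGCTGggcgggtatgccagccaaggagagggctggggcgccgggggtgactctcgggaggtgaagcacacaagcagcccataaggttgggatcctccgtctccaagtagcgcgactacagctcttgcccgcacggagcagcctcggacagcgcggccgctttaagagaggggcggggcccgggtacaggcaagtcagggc
POU4F1: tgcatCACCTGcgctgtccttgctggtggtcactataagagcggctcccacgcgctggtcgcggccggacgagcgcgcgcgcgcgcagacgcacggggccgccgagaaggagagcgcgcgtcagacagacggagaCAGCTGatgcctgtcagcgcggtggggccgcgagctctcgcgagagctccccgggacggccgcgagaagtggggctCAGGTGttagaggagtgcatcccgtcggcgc
The POU4F1 E-boxes begin 245, 115 and 39 bases before the transcript start, and that of UBASH3B 248 bases before it. CACCTG is CAGGTG read on the other strand. The CD82 window and 1 PRAME window held a single CAGCTG each, and the TRH window held neither motif. Such matches describe the letters in these windows only.

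The level of a gene is its FPKM, a fragment number divided by gene length and by library total, so genes of different length can be compared. The scaling totals were inferred from the FPKM values, as those that best gave whole read numbers over all genes. They lay between 16391000 and 18204000 fragments, and the values of all 8 genes were then whole read numbers in every library. Kasumi-1 markers were present: 7 of 8 myeloblast markers reached 1 FPKM in all libraries, led by MPO, the granule peroxidase, at 8054 ± 1219 FPKM in control and 6712 ± 357 with I1 (SD, n = 3 each). Of 10 erythroid and megakaryocyte markers 7 were analysed, without HBB, HBG1 and PF4. Of these 7, 0 reached 1 FPKM in all libraries and HBA1 and HBA2 were at 0 throughout. KLF1 was the highest of the 7, at 0.920 to 1.35 FPKM. The summed level of the 7 was 1.43 to 2.17 FPKM in control and 1.31 to 1.72 with I1. Neural markers summed to 0.338 to 0.742 and 0.351 to 0.552 FPKM over 3 genes, T cell markers to 0.532 to 0.811 and 0.394 to 1.40 over 3, B cell markers to 2.08 to 3.30 and 1.52 to 3.40 over 3. Endothelial and fibroblast markers summed to 1.91 to 2.92 and 1.24 to 2.53 FPKM over 4 genes, with PECAM1, also a leukocyte protein, the only one past 1 FPKM in all libraries. Control replicate 1 stood apart on the first principal component, at -43.8 against -2.90 to 19.8 for the other 5 libraries. Log2 fold changes also followed the GC content of the genes (rho of -0.753 by Spearman's rank method over 11899 genes, not independent of each other).

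UBASH3B had the highest mean over the 6 libraries, 22.9 FPKM, above 93.9% of all genes in the table. TRH followed at 16.4, IGFBP7 at 11.1, POU4F1 at 5.24 and CD82 at 1.95 FPKM. NFE2, LAT2 and PRAME lay lowest, at 0.451, 0.397 and 0.197 FPKM. The ranges of UBASH3B and TRH overlapped, and UBASH3B was above TRH in 5 of 6 libraries, the exception being control replicate 2. TRH and IGFBP7 overlapped as well, again with TRH higher in 5 of 6 libraries, the exception being I1 replicate 3. From IGFBP7 down to POU4F1, CD82 and NFE2 each gene lay below the one before in 6 of 6 libraries with no overlap of ranges. NFE2 and LAT2 could not be ordered, since each was higher in 3 of 6 libraries. LAT2 was above PRAME in 6 of 6 libraries, although their ranges over the libraries overlapped.

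**Figure D1:**
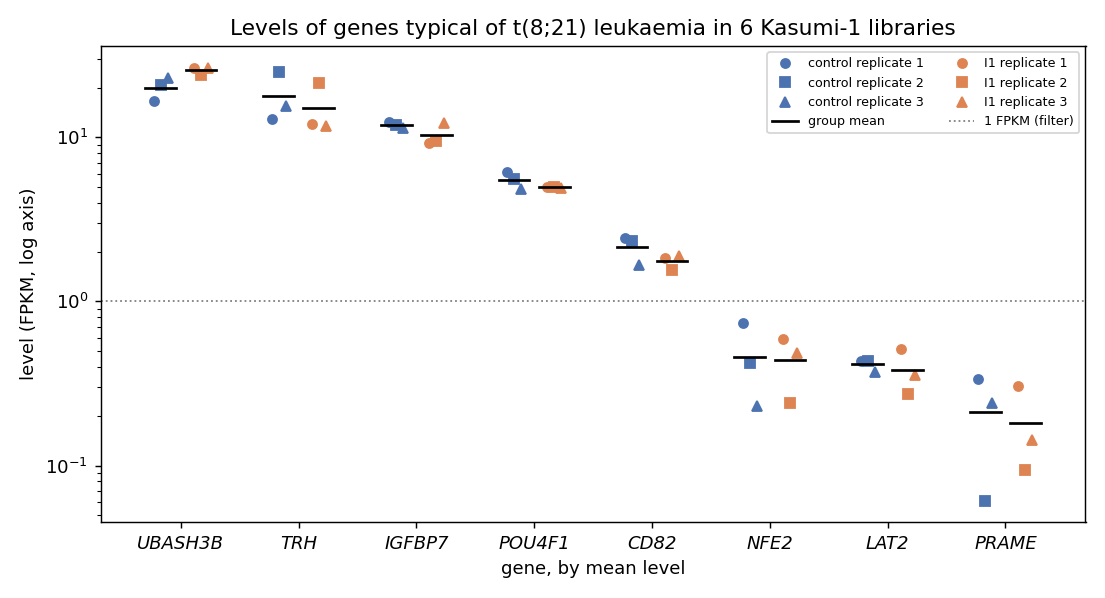
Level of each gene in FPKM on a log axis, in the 3 control and the 3 I1 libraries, with genes ordered by mean level; short bars are group means and the dotted line is the 1 FPKM filter. UBASH3B, TRH and IGFBP7 lie between 9.26 and 26.6 FPKM, while NFE2, LAT2 and PRAME stay below 1 FPKM in every library.

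Of the 8 genes, 5 had at least 1 FPKM in at least 3 libraries and entered the test across 11913 genes. A gene was called at an adjusted p under 0.05 and a log2 fold change past 1 in either direction. By limma 0 of the 5 were called, against 0.0336% of all genes tested. At an unadjusted p under 0.05 the count was 1 of 5, UBASH3B on the higher side, against 9.57% of all genes in either direction and 6.8% on the higher side. When same-numbered samples were blocked as pairs, 0 of 5 were called against 0.0504% of all genes, and 1 of 5, again UBASH3B, had an unadjusted p under 0.05 against 27.1%. UBASH3B had higher values with I1 and the other 4 lower ones, with a median log2 fold change of -0.18 over the 5 against 0.03 over all genes tested. Only UBASH3B had groups that did not overlap, which held for 21.6% of all genes tested, 12.9% on the higher side and 8.74% on the lower. The 95% intervals of UBASH3B, TRH, IGFBP7, POU4F1 and CD82 all lay between -1 and 1 on the scale of log2(FPKM + 1). In bulk RNA, fewer cells with a transcript and less of it per cell cannot be told apart.

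UBASH3B (ENSG00000154127; hg38 chromosome 11, 122655675 to 122814473, plus strand) encodes STS-1, a phosphatase that removes phosphate from receptor-linked kinases and so lowers their signal. Its level was 16.5, 20.7 and 23.0 FPKM in control replicates 1 to 3 and 26.5, 24.0 and 26.6 FPKM with I1, from 2710 to 3979 reads per library. Every I1 library was above every control, and control replicate 1 was the lowest of the 6. The means were 20.1 ± 3.31 and 25.7 ± 1.46 FPKM (SD, n = 3 each). The log2 fold change was 0.35 ± 0.143 (SE), with a 95% interval of 0.020 to 0.68, and did not pass (limma adjusted p = 0.467). With the replicate number as a block the interval was 0.075 to 0.62, and it did not pass either (limma adjusted p = 0.148). All 3 pairs of like number had more UBASH3B with I1, as did 32.1% of all genes tested, by 1.60-fold in pair 1 and 1.16-fold and 1.15-fold in pairs 2 and 3. Without control replicate 1 the log2 fold change was 0.22 (limma adjusted p = 0.751), and after a correction for GC content 0.18 (limma adjusted p = 0.948). The UBASH3B transcript has a GC content of 43.1%, below the median of 47.9% of the genes tested, and the part of this in the difference was not tested beyond that correction.

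RUNX1T1, the fusion partner, showed the same order of libraries among the extremes. It had 12.1, 14.4 and 15.3 FPKM in control and 17.5, 16.7 and 18.4 with I1, again without overlap, and its transcript has a GC content of 42.8%. The log2 fold change was 0.32 ± 0.124 (SE) with a limma adjusted p of 0.467, and 0.13 after the GC correction. Pearson's r of UBASH3B with RUNX1T1 was 0.987 over the 6 libraries and with RUNX1 0.939, as a description. For the other tested genes r was negative with RUNX1T1 and with RUNX1. It was -0.870 and -0.982 for POU4F1, -0.712 and -0.859 for CD82, -0.515 and -0.420 for IGFBP7, and -0.179 and -0.169 for TRH. These values too are a description, and how many other genes have such r with RUNX1T1 or RUNX1 was not counted. Reads of the fusion transcript are counted with RUNX1 or RUNX1T1 and were not told apart from them, and 450 of 6482 candidate genes had r above 0.9 with UBASH3B. The most alike by the rule used was BCAT1, which starts the breakdown of branched-chain amino acids (r = 0.997, 11.6 to 25.4 FPKM).

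TRH (ENSG00000170893; chromosome 3, 129974305 to 129977938, plus strand) encodes the precursor of thyrotropin-releasing hormone, which in the brain drives the pituitary to release thyrotropin. It was at 12.8, 24.9 and 15.5 FPKM in control replicates 1 to 3 and at 11.998, 21.5 and 11.7 FPKM in I1 replicates 1 to 3. Replicate 2 was the highest library of both groups, and the groups overlapped. The spread among replicates exceeded the difference between groups: the means were 17.7 ± 6.32 and 15.1 ± 5.57 FPKM (SD, n = 3 each), and the highest library was 2.13 times the lowest, a ratio above that of 86.4% of 6926 genes with a mean of at least 5 FPKM. Each library held 384 to 852 TRH reads.

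Within same-numbered pairs TRH was lower with I1 in 3 of 3, at 0.935, 0.864 and 0.754 of the control level, as were 25.8% of all genes tested. The log2 fold change was -0.22 ± 0.289 (SE), 95% interval -0.89 to 0.44, limma adjusted p = 0.696. Taking the replicate number as a block narrowed the interval to -0.45 to 0.0057, and the limma adjusted p of 0.190 still did not pass. In the fit without the block, leaving out control replicate 2 but not its high partner gave 0.035, and leaving out I1 replicate 2 alone gave -0.49. Within pairs no single library set the sign, and the blocked fit without pair 1 gave -0.29 (limma adjusted p = 0.181). After the correction for GC content it was -0.030 (TRH has a GC content of 61.4%). The most alike gene over the 6 libraries was CDC123, a factor of translation initiation, with r = 0.996 and 42.4 to 55.9 FPKM, also highest in both replicates 2. With TRH, 137 of 6482 candidates had r above 0.9.

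**Figure D2:**
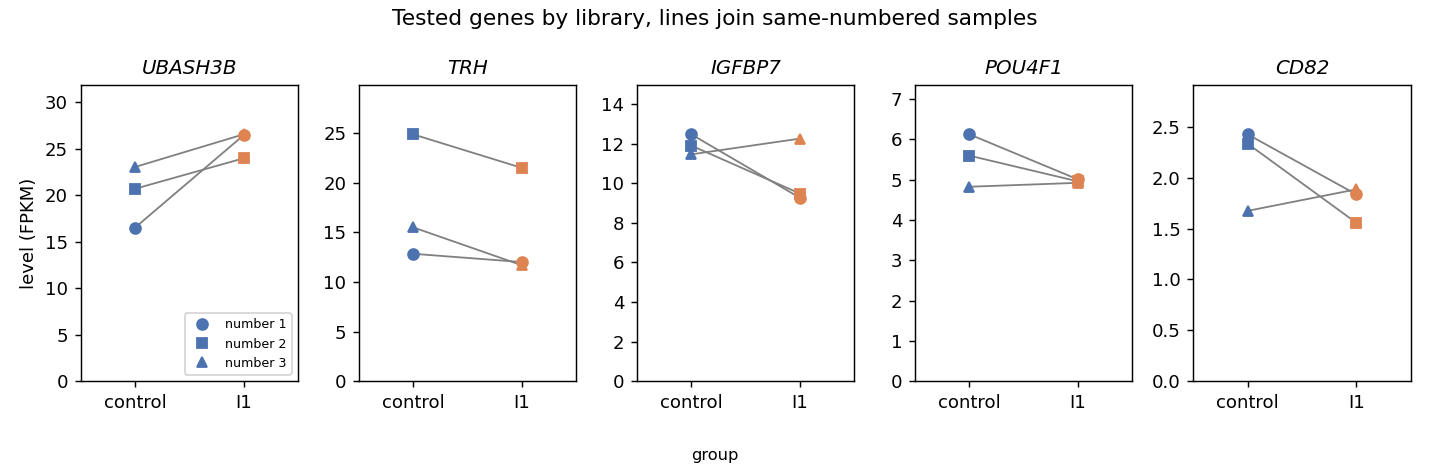
FPKM of the 5 tested genes in each library from 0 upward, control at left and I1 at right, with lines that join samples of the same replicate number. TRH of number 2 lies at 24.9 and 21.5 FPKM, above all other libraries, and the I1 values of UBASH3B all lie above its controls.

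POU4F1 (ENSG00000152192; chromosome 13, 78598362 to 78603560, minus strand) encodes BRN3A, a POU homeodomain factor of sensory neurons. Its levels were 6.13, 5.60 and 4.82 FPKM in control and 5.005, 4.96 and 4.92 with I1. The I1 libraries lay close together and inside the range of the controls. Their 373, 382 and 372 reads spread less than counting alone gives, so this closeness is no measure of their true spread. The chi-square of the read numbers per degree of freedom was 0.0261 with I1 and 6.31 in control (about 1 for counting alone). The means were 5.52 ± 0.654 and 4.96 ± 0.0416 FPKM (SD, n = 3 each). The log2 fold change was -0.12 ± 0.125 (SE), 95% interval -0.41 to 0.17, limma adjusted p = 0.621, and it was -0.056 without control replicate 1 and -0.20 without control replicate 3. It was -0.095 after the correction for GC content. The blocked fit had a 95% interval of -0.38 to 0.14 (limma adjusted p = 0.459). POU4F1 was the steadiest of the 8, with a highest library 1.27 times the lowest. Antisense transcripts of the locus share up to 1258 exonic bases with POU4F1, but reached at most 0.224 FPKM. The most alike gene was NUDT16L1, with r = 0.997 and 10.7 to 15.8 FPKM, where 109 of 6482 candidates had r above 0.9. POU4F3, the other class IV POU factor analysed, had 0.0478 ± 0.0829 FPKM in control and 0 in the 3 I1 libraries.

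IGFBP7 (ENSG00000163453; chromosome 4, 57030773 to 57110385, minus strand) encodes a secreted protein related to the binders of insulin-like growth factors. It had 12.5, 11.9 and 11.5 FPKM in control and 9.26, 9.48 and 12.3 with I1. I1 replicates 1 and 2 lay below every control, and I1 replicate 3 lay within the controls, so the groups overlapped. The means were 11.9 ± 0.507 and 10.3 ± 1.67 FPKM (SD, n = 3 each), a log2 fold change of -0.20 ± 0.135 (SE), 95% interval -0.51 to 0.11, limma adjusted p = 0.503. It was -0.32 without I1 replicate 3, -0.11 in the blocked fit without pair 1 and -0.14 after the correction for GC content. The blocked fit with all pairs had a 95% interval of -0.49 to 0.085 (limma adjusted p = 0.295). IGFBP7 shares 270 exonic bases with POLR2B, an RNA polymerase II subunit gene on the other strand at 67.4 to 105 FPKM. No source used here says whether counting was by strand, so reads of the shared bases cannot be assigned with certainty. Over the 6 libraries r between IGFBP7 and POLR2B was -0.510, as a description. The most alike gene was DPP3, a peptidase, with r = 0.981 and 14.7 to 18.6 FPKM, where 7 of 6482 candidates had r above 0.9.

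CD82 (ENSG00000085117; chromosome 11, 44564427 to 44620363, plus strand) encodes a tetraspanin, a membrane organiser of adhesion receptors. Its level was 2.43, 2.33 and 1.67 FPKM in control and 1.84, 1.56 and 1.88 with I1, from 107 to 179 reads. Controls 1 and 2 were above every I1 library and control 3 was below 2 of them. The means were 2.14 ± 0.41 and 1.76 ± 0.177 FPKM (SD, n = 3 each), a log2 fold change of -0.18 ± 0.155 (SE), 95% interval -0.54 to 0.18, limma adjusted p = 0.569. The correction for GC content brought it to -0.012, with a transcript GC content of 59.0%. Without control replicate 3 it was -0.29 and without control replicate 1 it was -0.12. The blocked fit had a 95% interval of -0.53 to 0.17 (limma adjusted p = 0.423). The most alike gene was CDIPT, an enzyme of phosphatidylinositol synthesis, with r = 0.971 and 4.22 to 6.38 FPKM. With CD82, 21 of 6483 candidates had r above 0.9.

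**Figure D3:**
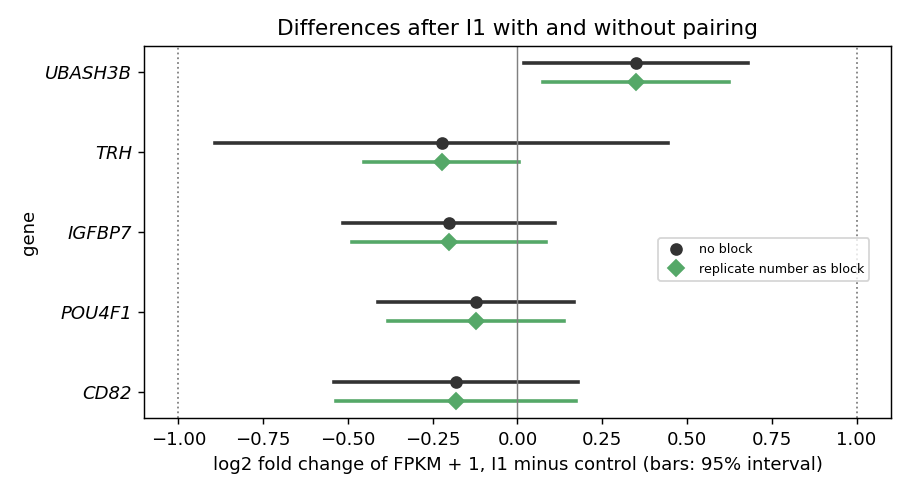
Log2 fold change of FPKM + 1, I1 minus control, for the 5 tested genes, with 95% intervals from the fit without a block (black) and from the fit blocked by replicate number (green); dotted lines mark 1 in size. The TRH interval shortens from -0.89 to 0.44 without the block to -0.45 to 0.0057 with it, and the other 4 change less.

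NFE2, LAT2 and PRAME did not reach 1 FPKM in any library and were not tested, with 4 to 38 reads per library. NFE2 (ENSG00000123405; chromosome 12, 54292111 to 54301121, minus strand), the leucine zipper factor of platelet and red cell genes, had 0.734, 0.421 and 0.229 FPKM in control and 0.593, 0.239 and 0.487 with I1. The groups of NFE2 overlapped. The ratio of its reads, I1 over control and scaled to depth, was 0.943, and its exact 95% interval ran from 0.642 to 1.38. This interval and the 2 that follow cover counting error only.

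LAT2 (ENSG00000086730; chromosome 7, 74199652 to 74229834, plus strand) had 0.435, 0.432 and 0.373 FPKM in control and 0.510, 0.273 and 0.357 with I1, a read ratio of 0.916 with an interval of 0.679 to 1.23. I1 replicate 1 was the highest library and I1 replicate 2 the lowest. PRAME (ENSG00000185686; chromosome 22, 22547701 to 22559361, minus strand) encodes a leucine-rich repeat protein that serves as the substrate receptor of a cullin ligase. It had 0.335, 0.0611 and 0.240 FPKM in control and 0.307, 0.0938 and 0.143 with I1, from 4 to 23 reads, with a read ratio of 0.842 and an interval of 0.521 to 1.35. Number 2 was the lowest in both groups. This level is above that of 42.8% of all genes in the table, which does not match a gene often high in t(8;21) leukaemia. The replicates of PRAME spread more widely than counting alone gives, with a chi-square of the read numbers per degree of freedom of 6.01 in control and 4.32 with I1 (about 1 for counting alone), as did NFE2 at 6.22 and 3.12 and LAT2 with I1 at 2.89, so the intervals are too narrow for a comparison of the groups.

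Relatives and partners of the 9 genes gave a wider view, 65 genes in 9 lists. Of them 57 were analysed and 37 tested, 17 with a higher and 20 with a lower value. The median log2 fold change was -0.08 against 0.03 over all 11913 genes, and 45.9% were higher against 54.5% of all genes. By limma 0 of 37 passed (0.0336% of all genes) and 1 had an unadjusted p under 0.05 (9.57% of all genes), FURIN. Groups did not overlap in 1 on the higher side, BACH1 (12.9% of all genes), and in 3 on the lower side, FURIN, CD81 and IGFBP4 (8.74%). The GC content was 38.6% for BACH1 and 61.7%, 64.9% and 62.5% for FURIN, CD81 and IGFBP4, against a median of 47.9%. The GC-corrected fit included these genes, but their corrected values are not given here. Beyond that fit, the part of GC content in these differences was not tested.

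Tetraspanins other than CD82 had lower values with I1 in 6 of 6 tested genes, at a median of -0.23, which the GC correction brought to -0.14, and their median GC content was 57.3%. Without control replicate 1 the median was -0.12. CD63, of lysosomes and granules, had 68.7 ± 6.65 FPKM in control and 58.3 ± 3.99 with I1 (SD, n = 3 each), and CD37, of leukocytes, 37.9 ± 12.5 and 29.5 ± 4.89. Partners of UBASH3B were higher in 3 of 3 tested genes, at a median of 0.13 and 0.08 after the GC correction. Leaving out single libraries moved that median between 0.022 without control replicate 1 and 0.20 without I1 replicate 1, and quantile normalization gave 0.0060. Among them CBL, a ubiquitin ligase of receptor signals, had 16.6 ± 3.47 and 18.7 ± 0.918 FPKM, and SYK, a kinase that STS-1 dephosphorylates, 2.63 ± 0.863 and 2.76 ± 0.745. UBASH3A, the paralogue of T cells, was at 0 in all 6 libraries.

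Of the genes for TRH processing, receptor and degradation 6 were analysed, with 2 tested and 4 under the filter. The convertase gene PCSK2 was not analysed. FURIN, a protease of the secretory pathway, had 42.7 ± 1.58 and 33.4 ± 4.21 FPKM without overlap of groups, and PAM, which amidates peptide hormones, 7.33 ± 0.655 and 8.23 ± 0.485 (SD, n = 3 each). PCSK1, the convertase of neuroendocrine cells, was at 0 in all libraries. The receptor gene TRHR had 0.0115 ± 0.0199 and 0.0237 ± 0.0205 FPKM. In the caveola list CAVIN1 stood at 22.1 ± 5.26 and 19.1 ± 4.69 FPKM and PACSIN2, a membrane-bending protein, at 14.4 ± 0.454 and 12.7 ± 1.49, and the 2 tested genes had a median of -0.18. The GC correction brought it to -0.053, and leaving out I1 replicate 1 or I1 replicate 2 gave -0.30 or -0.11.

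The genes around LAT2 had a median of 0.0091 over 7 tested members, 4 higher and 3 lower. GRB2, the adaptor that couples receptors to RAS, had 84.4 ± 9.08 and 84.3 ± 7.62 FPKM, and LYN, a SRC kinase of myeloid cells, 17.6 ± 1.41 and 17.7 ± 1.62 (SD, n = 3 each). The IGF system had a median of 0.0098 over 5 members. IGFBP4 was its most abundant member, at 114 ± 28.8 FPKM in control and 83.1 ± 12.2 with I1 with no overlap of groups, and IGFBP2 followed at 30.4 ± 8.08 and 27.3 ± 2.73. Both bind insulin-like growth factors.

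In the PRAME list 3 of 6 were higher, at a median of 0.02, with EZH2, a histone methyltransferase, at 35.1 ± 6.50 and 39.2 ± 3.41 FPKM and ELOB, an elongin subunit of cullin ligases, at 37.0 ± 2.20 and 34.8 ± 4.77. The relatives and partners of NFE2 had a median of -0.02, 3 of 6 higher. NFE2L1, which induces proteasome genes, had 47.8 ± 3.04 and 44.0 ± 1.94 FPKM, and MAFG, a small MAF that pairs with NFE2, 15.6 ± 1.86 and 13.5 ± 1.83 (SD, n = 3 each). Both relatives were more abundant than NFE2 in every library. The medians of the LAT2, IGF, PRAME and NFE2 lists took both signs as single libraries were left out. After the GC correction they were -0.039, 0.021, 0.039 and -0.0080 in that order.

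**Figure D4:**
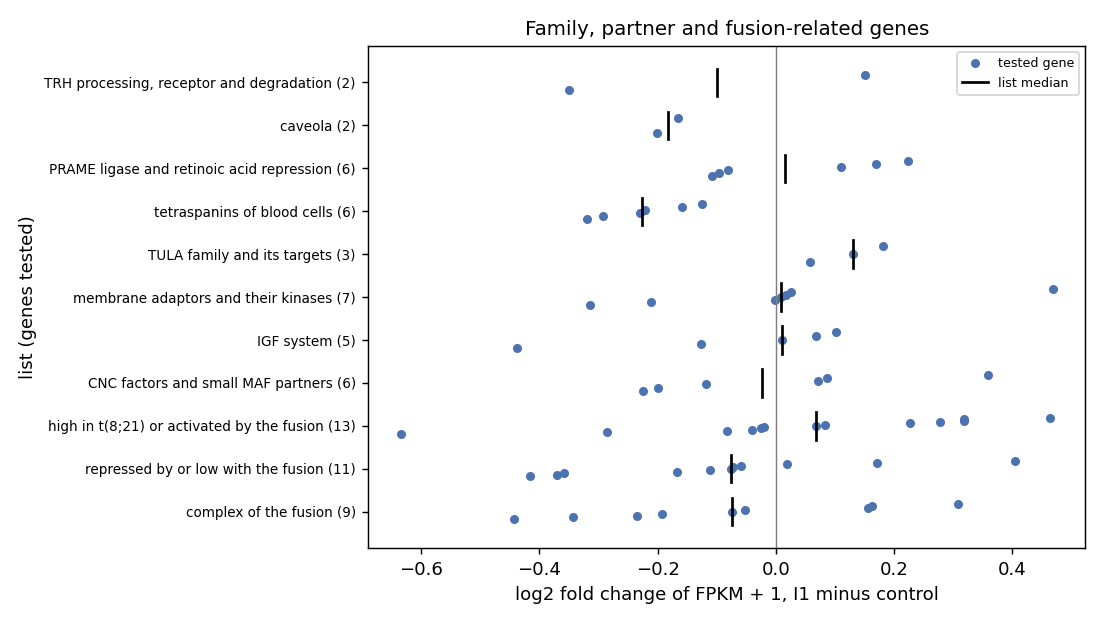
Log2 fold change of FPKM + 1, I1 minus control, of each tested gene in the lists of relatives, partners and fusion-related genes, with the list median as a bar and the number tested in brackets. All 6 tetraspanins lie below 0, at a median of -0.23, and most list medians lie within 0.1 of 0.

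Other genes tied to the fusion were taken from 3 further lists. Of 13 tested genes often high in this leukaemia or activated by the fusion, 7 were higher and 6 lower, with a median of 0.07. By limma 0 were called (0.0336% of all genes) and 4 of 13 had an unadjusted p under 0.05 (9.57% of all genes). These were BCL2, SOX4 and RUNX1T1, higher at 0.46, 0.32 and 0.32, and ID1, lower at -0.63. Groups did not overlap in 4 on the higher and 2 on the lower side (12.9% and 8.74% of all genes). RUNX1T1, the fusion partner described above, is counted again in both of these counts. The median ran from 0.00084 without control replicate 2 to 0.21 without control replicate 1, and was -0.0084 after quantile normalization. With the GC correction it was 0.086. KIT, the stem cell factor receptor, had 162 ± 15.7 and 196 ± 6.88 FPKM, and JUP, a junction protein also known as plakoglobin, 91.2 ± 11.9 and 74.4 ± 6.03 (SD, n = 3 each), both without overlap and in opposite directions. Their transcripts have a GC content of 42.6% and 61.5%, on either side of the median of 47.9% of the genes tested. The GC-corrected fit included both, but their corrected values are not given here. Beyond that fit, the part of GC content in the differences of KIT and JUP was not tested. Of 11 tested genes reported as silenced by or low with the fusion, 3 were higher and 8 lower, with a median of -0.08 that the GC correction brought to -0.0016. By limma 0 were called (0.0336%) and 3 of 11 had an unadjusted p under 0.05 (9.57%), and groups did not overlap in 1 on the higher and 2 on the lower side (12.9% and 8.74%). Leaving out single libraries moved the median between -0.14 without I1 replicate 2 and -0.021 without I1 replicate 3. GFI1, a transcriptional repressor, and SPI1, the myeloid factor PU.1, led this list at 142 ± 15.1 and 113 ± 9.87 FPKM in control and 131 ± 14.3 and 88.0 ± 4.95 with I1, SPI1 without overlap of groups. The SPI1 transcript has a GC content of 65.1%. The complex that carries the fusion had 9 tested genes, 3 higher and 6 lower, with a median of -0.07. By limma 0 were called (0.0336%), and groups did not overlap in 0 on the higher and 2 on the lower side (12.9% and 8.74%). The median was -0.22 without I1 replicate 1 and -0.20 without control replicate 3, but 0.0048 without control replicate 1 and 0.0031 without I1 replicate 3. With the GC correction it was -0.090. LYL1, a basic helix-loop-helix factor, had 118 ± 41.0 and 83.9 ± 11.8 FPKM, and TCF3, an E protein, 45.4 ± 5.53 and 38.4 ± 3.51 without overlap of groups. The TCF3 transcript has a GC content of 61.2%.

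**Figure D5:**
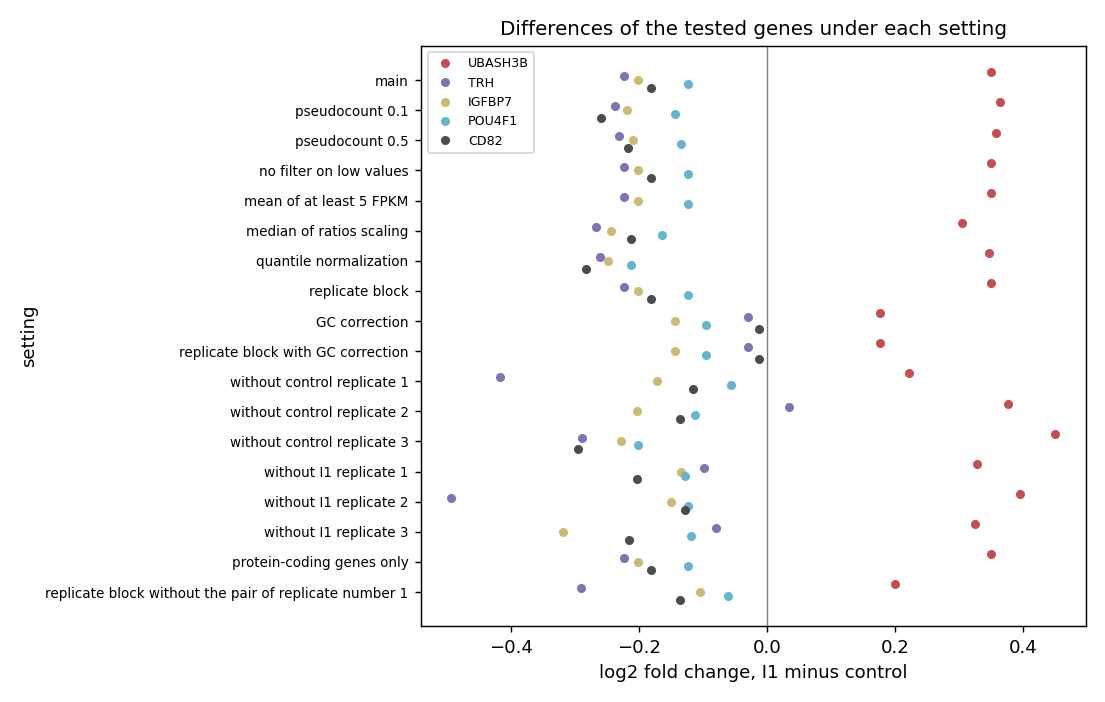
Log2 fold change, I1 minus control, of the 5 tested genes (colours) under the main setting and 17 others (rows). UBASH3B stays above 0 throughout, between 0.18 and 0.45, and TRH moves the most, from -0.49 to 0.035.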

How the data were processed

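The authors deposited 1 table of FPKM values for 6 Kasumi-1 samples. Per the labels' protocols, Trizol RNA was made into TruSeq Stranded mRNA libraries. The tools named, per the submitters' processing notes, are HTSeq, Cufflinks, HISAT2 and Trimmomatic, with build hg38. Their versions, the annotation and any use of strand are not stated. Although the table is named for different lines and a different agent, its column names match the titles of these samples, and 0 columns were left unused. With exon lengths of GENCODE release 29, FPKM gave whole reads in all libraries for 95.9% of 29703 genes (tolerance 0.05 reads). The library totals behind this were fitted to give whole reads, so the share is not an independent check of them. The 11913 genes that reached 1 FPKM in 3 or more libraries were tested between groups, 2-sided, by limma 3.58.1 (R 4.3.3, trend option) on log2(FPKM + 1), with Benjamini-Hochberg adjustment. This scale understates changes of low genes. The fit was tested on simulated data with independent normal noise. These had no pairs, GC trend or outlying library, so they do not test the fit under those features of the real data. The GC correction subtracts a smooth curve of GC content (longest transcript) per library.

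Sample titles carry replicate numbers from 1 to 3. Deviations from group means correlated at 0.476, 0.457 and 0.412 between same-numbered samples, so a second fit took the numbers to pair them as a block. Values are from the fit without that block unless the block is named. The members and lists were chosen with earlier results of these data known. Named are all members, RUNX1, RUNX1T1, the 2 most abundant tested genes of each list, and per tested member the protein-coding gene with a mean of at least 5 FPKM that correlates best over the 6 libraries. POU4F3, PCSK1, TRHR, UBASH3A, MPO, PECAM1, HBA1, HBA2, KLF1, POLR2B, BACH1, CD81, BCL2, SOX4 and ID1 were added after their values were seen.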

Additional observations from a re-analysis of the deposited data

How the results depend on the processing

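The 5 tested genes, RUNX1 and RUNX1T1 gave 118 values under 17 other settings, 2 of them (protein-coding genes only, and the block without number 1) chosen after seeing the data. Direction and side of the threshold held in 117. The exception was TRH without control replicate 2, at 0.035, where leaving out single libraries ranged from -0.49 to 0.035 (limma adjusted p = 0.945, range over the settings 0.181 to 0.999). UBASH3B ranged from 0.18 to 0.45 (limma adjusted p 0.148 to 0.948). None of the members was called under any setting run. The largest of the 118 values in size was -0.49, of TRH, against a threshold of 1. The side of the threshold thus had little room to change, and all settings reuse the same 6 libraries. Over all genes, limma called 4 in the main setting and 0 with a pseudocount of 0.1 or 0.5, without the filter, with a mean of at least 5 FPKM, with the GC correction, or with protein-coding genes alone (1076, 1104, 1726, 685, 613 and 1042 at an unadjusted p under 0.05). It called 2 after quantile normalization and 0 to 2 with a library left out. With the replicate number as a block it called 6, with block and GC correction 1, and the block changed no call of a member. Of 187 list medians, 24 moved by more than the spread of the pairs. NFE2, LAT2 and PRAME rest on 4 to 38 reads per library, and replicate spread beyond counting error adds to that limit.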
